A study of Mus musculus with 19 samples.

Results

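The 10 genes described here encode receptors for serotonin, and their messenger RNA was measured in the striatum of 19 male mice aged 4 months. They were taken by name (Htr1a, Htr1b, Htr1d, Htr1f, Htr2a, Htr2c, Htr3a, Htr4, Htr6 and Htr7) from the 22901 genes that the authors' deposited comparison tables list, and their counts were read by gene identifier from count files of 49592 genes. All 10 had enough counts to be tested, among 21513 genes that passed the filter on low counts. Every mouse carried Cre recombinase driven by the dopamine D2 receptor gene together with a Cre-dependent Cas9-EGFP (D2RCre_floxCas9-EGFP), and every mouse received an AAV5 virus in the medial prefrontal cortex. The virus carried guide RNAs against the D2 receptor gene (AAV5 D2R-sgRNA, the KO mice) or mCherry alone (AAV5 syn-mCherry, the control mice). Starting 3 weeks after surgery the mice were given saline on 5 days, with motor activity recorded for 30 min after each injection. On day 9 they received either amphetamine at 3 mg/kg, which releases dopamine and other monoamines, or saline. Striatum was taken 90 min after the amphetamine injection, and the labels give no separate time for the saline mice.

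The groups were amphetamine KO (n = 4), amphetamine control (n = 5), saline KO (n = 5) and saline control (n = 5), and each library is 1 mouse. The editing was aimed at D2 receptor cells of the prefrontal cortex, so no library here measures whether it took place, and the tissue sequenced lies outside the injected region. The study asked how a loss of prefrontal D2 receptors bears on the striatal response to amphetamine. Library totals ran from 57003408 to 85536346 counts, and the 10 receptor genes had between 143 and 14158 counts in a library. Amphetamine KO mice 2 and 3, amphetamine control mouse 3, saline KO mouse 3 and saline control mouse 5 stood apart from the other libraries in an earlier analysis of these data. For receptor genes with an unadjusted p under 0.05, log2 fold changes are given with and without these 5. The exception is amphetamine against saline in control mice, where no receptor fold change without the 5 is given. Without these 5 libraries the amphetamine KO group keeps only mice 1 and 4, so those values rest on few mice. Markers of the striatum's projection neurons were abundant in every library, with 8 genes summing to between 1455 and 5204 CPM (the share of the library that a count makes up, on a common scale). No gene of the 15 marker lists was at 0 in all libraries. Markers of regions next to the striatum were also measured in every library, and their values stand beside the results they move with.

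Serotonin reaches the striatum in axons of the raphe nuclei, whose cell bodies and therefore most serotonin-neuron transcripts lie in the brainstem. All but 1 of the receptor families are G protein-coupled: the Htr1 receptors act through Gi and lower cyclic AMP, the Htr2 receptors act through Gq and phospholipase C, and Htr4, Htr6 and Htr7 act through Gs and raise cyclic AMP. Htr3a is the exception, a subunit of a cation channel opened by serotonin. In rodents, striatal projection neurons are known to make Htr1b, Htr2c, Htr4 and Htr6 among others.

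Promoter sequences are shown for 4 genes, because Htr1a and Htr7 varied together from mouse to mouse, as did Htr1b and Htr1d. Each run is the 250 bases before the gene's start in RefSeq's mouse annotation (build GRCm38.p6), read 5′ to 3′ on the gene's own strand. Capitals mark a GC box, the letters GGGCGG. Htr1a is on the plus strand (chr13:105443443-105443692), Htr7 on the minus strand (chr19:36057361-36057610), Htr1b on the minus strand (chr9:81633833-81634082) and Htr1d, for which 1 of 2 listed starts is shown, on the plus strand (chr4:136423274-136423523).
Htr1a: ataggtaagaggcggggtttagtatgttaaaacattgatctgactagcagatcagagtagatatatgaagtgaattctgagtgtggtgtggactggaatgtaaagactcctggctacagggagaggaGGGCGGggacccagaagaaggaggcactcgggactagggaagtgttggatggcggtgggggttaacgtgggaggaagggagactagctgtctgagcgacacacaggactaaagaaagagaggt
Htr7: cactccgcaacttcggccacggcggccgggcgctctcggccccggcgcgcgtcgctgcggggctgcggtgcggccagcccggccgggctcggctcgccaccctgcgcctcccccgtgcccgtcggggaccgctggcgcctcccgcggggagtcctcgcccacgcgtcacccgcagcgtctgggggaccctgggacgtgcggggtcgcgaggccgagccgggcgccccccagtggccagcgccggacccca
Htr1b: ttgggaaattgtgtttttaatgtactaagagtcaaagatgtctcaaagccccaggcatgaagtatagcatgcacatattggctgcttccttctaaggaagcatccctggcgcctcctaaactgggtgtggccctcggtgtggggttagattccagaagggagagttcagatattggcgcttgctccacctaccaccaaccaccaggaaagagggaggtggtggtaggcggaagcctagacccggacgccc
Htr1d: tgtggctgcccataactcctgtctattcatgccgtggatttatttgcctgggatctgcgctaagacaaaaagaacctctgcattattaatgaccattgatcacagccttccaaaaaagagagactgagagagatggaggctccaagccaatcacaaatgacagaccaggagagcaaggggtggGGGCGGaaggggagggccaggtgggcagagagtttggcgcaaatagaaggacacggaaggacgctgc
The sequences were searched on both strands for the cAMP response element TGACGTCA, the GC box GGGCGG, the TATA box TATAAA and the E-box CACGTG, none of which contains another. Of 32851 mouse promoters of the same length, 1.55% held the cAMP response element, 32.7% the GC box, 12.4% the TATA box and 6.02% the E-box. Htr1a and Htr1d each held 1 GC box and Htr7 and Htr1b held none of these motifs. Promoters of 8 of the 10 receptor genes were in the table. The others found there, Htr1f, Htr2a, Htr2c and Htr6, had a GC box in Htr2a and Htr6 and no other match. Neither of the 2 pairs shown shared a motif of this set. Htr1d and Htr6, which also varied together (r = 0.67), both held the GC box, a motif found in 32.7% of promoters. Among the other pairs of genes with a GC box, Htr2a had r = 0.58 with Htr1d and 0.31 with Htr6. Htr1a went the other way, with r = -0.43 to Htr1d, -0.39 to Htr2a and -0.27 to Htr6.

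The serotonin receptors differed in level, and Htr2c stood above the rest. Levels of different genes are compared here in the authors' deposited FPKM, which is scaled per kilobase of gene, as the median over the 19 mice with the lowest and highest mouse. Htr2c had a median of 28.6 FPKM (25.2 to 34.4), which was 3.03 times the median of Htr1b, and it held between 36.8% and 50.7% of the summed FPKM of the 10 genes. Htr1b followed at 9.44 FPKM (5.16 to 12.3). Htr2a at 6.25 FPKM (3.91 to 9.24), Htr7 at 6.07 FPKM (3.02 to 7.74) and Htr1a at 5.68 FPKM (3.22 to 8.35) formed the middle of the order. Htr1d had 3.08 FPKM (1.21 to 4.34), Htr4 2.65 FPKM (1.05 to 4.43) and Htr6 2.26 FPKM (1.33 to 2.68). The lowest medians were those of Htr3a at 1.49 FPKM (0.915 to 4.55) and Htr1f at 1.34 FPKM (0.781 to 2.14). Htr2c exceeded Htr1b in 19 of 19 mice, and this was the only pair of neighbours in the order whose ranges did not overlap.

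**Figure D1:**
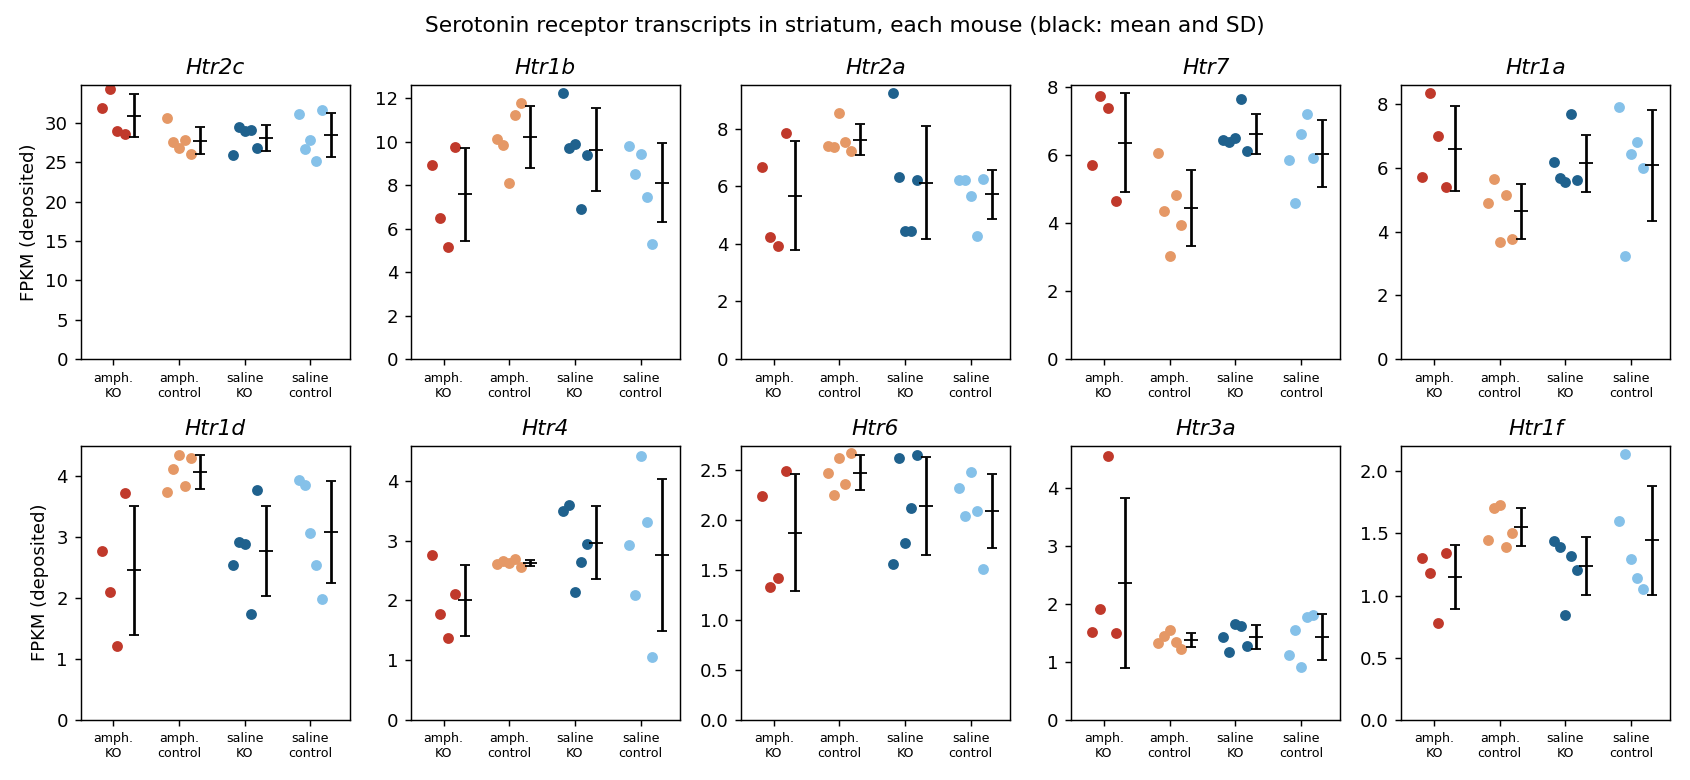
Deposited FPKM (vertical axes, linear from 0) of each serotonin receptor gene in each mouse, by group, with the group mean and SD in black, in order of median level. Htr2c stays between 25.2 and 34.4 FPKM in all 19 mice, while Htr3a has 1 amphetamine KO mouse at 4.55 FPKM above all others.

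Coupling classes can be summed on the same scale. The 4 Gi-coupled genes summed to 17.8 ± 2.59 FPKM in amphetamine KO, 20.5 ± 1.57 in amphetamine control, 19.8 ± 1.73 in saline KO and 18.7 ± 3.31 in saline control mice (SD, n = 4, 5, 5 and 5). The 2 Gq-coupled genes summed to 36.6 ± 2.71, 35.4 ± 1.68, 34.2 ± 1.25 and 34.2 ± 3.48 FPKM in the same order of groups. The 3 Gs-coupled genes summed to 10.2 ± 0.733, 9.55 ± 1.06, 11.7 ± 0.876 and 10.9 ± 2.28 FPKM. Within each class the ranges of all groups overlapped. Between classes the order by group mean, Gq above Gi above Gs, was the same in every group. Htr2c was also the steadiest member, with an SD of log2 CPM within groups of 0.11. Htr4 (0.48), Htr1d (0.44) and Htr3a (0.42) varied most between mice of the same group.

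Of the Gi-coupled receptors, Htr1a encodes the receptor that also serves as the cell-body autoreceptor of raphe neurons (ENSMUSG00000021721.6, chromosome 13, 105580147 to 105584630 in GRCm39, the build of all gene positions given here). From here on values of single mice are CPM after TMM scaling of the library, which compares mice but not genes. Htr1a had 25.6, 37.4, 31.0 and 24.2 CPM in amphetamine KO mice, against 22.0, 25.2, 16.4, 23.0 and 17.0 CPM in amphetamine control mice. It had 27.8, 25.5, 25.2, 34.4 and 25.4 CPM in saline KO mice, against 35.4, 14.5, 28.9, 30.5 and 26.8 CPM in saline control mice. Amphetamine control mice were the lowest group on average, but they overlapped every other group, and the lowest single value was in a saline control mouse.

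Htr1b encodes the receptor that sits on axon terminals, including those of striatal projection neurons (ENSMUSG00000049511.6, chromosome 9, 81510344 to 81515881). It had 42.3, 30.5, 24.1 and 46.0 CPM in amphetamine KO mice, against 48.0, 46.2, 38.2, 52.7 and 55.6 CPM in amphetamine control mice. In saline KO mice it had 57.9, 45.9, 47.2, 32.6 and 44.6 CPM, against 46.2, 40.4, 44.6, 35.1 and 25.0 CPM in saline control mice. Amphetamine KO mice 2 and 3 and saline control mouse 5, which are among the 5 libraries named above, held the 3 lowest values. The gene overlaps the lncRNA D430036J16Rik, which had 441 to 1003 counts, and since the strand setting of the counting is not given, reads of the pair may be shared.

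Htr1d, whose receptor is a close relative of Htr1b and a target of migraine drugs (ENSMUSG00000070687.12, chromosome 4, 136150835 to 136171709), had 8.07, 6.08, 3.49 and 10.8 CPM in amphetamine KO mice. In amphetamine control mice it had 10.9, 11.9, 12.6, 11.1 and 12.5 CPM. In saline KO mice it had 7.37, 8.51, 8.47, 5.03 and 11.0 CPM, against 11.4, 11.2, 8.93, 7.37 and 5.76 CPM in saline control mice. All 5 amphetamine control mice lay above all 4 amphetamine KO mice, by a narrow gap between 10.9 and 10.8 CPM, while the saline groups overlapped. Htr1f, another migraine-drug target (ENSMUSG00000050783.6, chromosome 16, 64745092 to 64926217), had 3.36, 3.04, 2.00 and 3.47 CPM in amphetamine KO mice, against 3.75, 4.37, 4.46, 3.57 and 3.88 CPM in amphetamine control mice. These groups did not overlap either, and the saline groups did, with 2.21 to 3.71 CPM in saline KO mice and 2.70 to 5.54 CPM in saline control mice.

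Among the Gq-coupled receptors, Htr2a encodes the receptor on which classical psychedelics act (ENSMUSG00000034997.6, chromosome 14, 74878280 to 74946934). It had 37.4, 23.8, 21.7 and 44.0 CPM in amphetamine KO mice, against 41.6, 41.1, 47.9, 42.1 and 40.5 CPM in amphetamine control mice. It had 51.8, 35.4, 25.1, 24.9 and 35.0 CPM in saline KO mice, against 34.7, 35.1, 31.7, 23.8 and 35.0 CPM in saline control mice. In control mice every amphetamine value lay above every saline value, whereas in KO mice the amphetamine and saline values overlapped and spread over a wide range. Htr2c, whose transcript is edited in the brain and is especially abundant in choroid plexus (ENSMUSG00000041380.14, chromosome X, 145745509 to 145980273), had 156, 168, 140 and 139 CPM in amphetamine KO mice, against 150, 134, 131, 135 and 127 CPM in amphetamine control mice. In saline KO mice it had 127, 145, 144, 142 and 132 CPM, against 152, 131, 136, 123 and 154 CPM in saline control mice. All groups overlapped. The highest value, 168 CPM, was in amphetamine KO mouse 2, where the 10 choroid plexus markers summed to 724 CPM, against 34.6 to 93.9 CPM in the other 18 libraries. The part of choroid plexus tissue in the Htr2c values was not tested.

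Of the Gs-coupled receptors, Htr7 is known from thalamus and hypothalamus (ENSMUSG00000024798.16, chromosome 19, 35936134 to 36034907). It had 18, 24.4, 23.0 and 14.6 CPM in amphetamine KO mice, against 19.2, 13.7, 9.54, 15.1 and 12.4 CPM in amphetamine control mice. In saline KO mice it had 20.3, 20.2, 20.7, 24.2 and 19.4 CPM, against 18.4, 14.5, 20.9, 22.7 and 18.5 CPM in saline control mice. Amphetamine control mice were low as a group, and 3 of the 5 lay below every mouse of the other groups. Htr4, a receptor of projection neurons (ENSMUSG00000026322.10, chromosome 18, 62457275 to 62629648), ranged from 6.29 to 12.9 CPM in amphetamine KO mice, 11.98 to 12.5 CPM in amphetamine control mice, 10.1 to 16.8 CPM in saline KO mice and 4.86 to 20.6 CPM in saline control mice. The saline control range contained those of the other groups. Htr6, whose receptor is found mainly in the brain (ENSMUSG00000028747.11, chromosome 4, 138788419 to 138802881), ranged from 3.12 to 5.84, 5.26 to 6.27, 3.65 to 6.24 and 3.53 to 5.82 CPM in the same order of groups, which overlapped.

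Htr3a encodes the channel subunit and in the cortex marks a class of interneurons (ENSMUSG00000032269.9, chromosome 9, 48810513 to 48822399). It had 3.18, 3.98, 9.39 and 3.10 CPM in amphetamine KO mice, against 2.78, 3.01, 3.21, 2.77 and 2.56 CPM in amphetamine control mice. In saline KO mice it had 2.97, 2.45, 3.50, 3.37 and 2.69 CPM, against 2.33, 3.24, 1.91, 3.67 and 3.77 CPM in saline control mice. Amphetamine KO mouse 3 stood far above the other 18 mice, none of which exceeded 3.98 CPM.

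Of the 4 pairwise comparisons, KO against control under amphetamine held the largest log2 fold change and the most unadjusted p-values under 0.05, and none of the 10 receptor genes passed the test in it. Genes were tested with edgeR's quasi-likelihood test on the counts and called at a Benjamini-Hochberg adjusted p under 0.05 over all 21513 genes, and all fold changes are log2 with their SE. In amphetamine KO against amphetamine control mice 0 of 10 were called, where the share of all genes called was 0%. At an unadjusted p under 0.05 it was 6 of 10, against 12.8% of all genes, with 3 higher and 3 lower. DESeq2 called 0 of the 10 and 103 of all genes. The values of 2 of the 10 did not overlap between these groups, against 6.79% of all genes, namely Htr1d and Htr1f. The median log2 fold change of the 10 was -0.40, against 0.0049 over all genes tested.

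Htr7 averaged 20.01 ± 4.53 CPM in amphetamine KO and 13.98 ± 3.56 CPM in amphetamine control mice (SD, n = 4 and 5), a log2 fold change of 0.52 ± 0.17 (edgeR, adjusted p = 0.238). Htr1a averaged 29.6 ± 5.99 CPM in amphetamine KO and 20.7 ± 3.87 CPM in amphetamine control mice, a log2 fold change of 0.51 ± 0.20 (adjusted p = 0.28). These 2 receptors, of opposite coupling, were the higher ones at an unadjusted p under 0.05, together with Htr3a. Htr3a averaged 4.91 ± 3.01 CPM in amphetamine KO and 2.87 ± 0.25 CPM in amphetamine control mice, a log2 fold change of 0.78 ± 0.27 (adjusted p = 0.257), and 0.26 without amphetamine KO mouse 3. Lower values at an unadjusted p under 0.05 were seen for 3 of the Gi-coupled receptors. Past that threshold, log2 fold changes were also below 0 for Htr2a (-0.43 ± 0.21, edgeR, adjusted p = 0.408) and Htr6 (-0.40 ± 0.20, adjusted p = 0.400). Htr4 had -0.40 ± 0.28 (adjusted p = 0.597), and Htr2c was above 0 with 0.16 ± 0.08 (adjusted p = 0.436). Lower values were thus not confined to the Gi-coupled receptors. Htr1d averaged 7.12 ± 3.11 CPM in amphetamine KO and 11.8 ± 0.799 CPM in amphetamine control mice, a log2 fold change of -0.73 ± 0.26 (adjusted p = 0.263), which was -0.50 without amphetamine KO mouse 3. Htr1b averaged 35.7 ± 10.1 CPM in amphetamine KO and 48.1 ± 6.68 CPM in amphetamine control mice, a log2 fold change of -0.43 ± 0.20 (adjusted p = 0.37), and -0.28 without amphetamine KO mouse 3. Htr1f averaged 2.97 ± 0.673 CPM in amphetamine KO and 4.01 ± 0.392 CPM in amphetamine control mice, with -0.43 ± 0.20 (adjusted p = 0.385), and -0.28 without that mouse. Without the 5 libraries named above these log2 fold changes were 0.11 for Htr7, 0.19 for Htr1a, 0.18 for Htr3a, -0.30 for Htr1d, -0.20 for Htr1b and -0.19 for Htr1f. Each kept its sign and was smaller, in a fit whose amphetamine KO group lacks mice 2 and 3.

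Sums of several marker lists differed on average between the same groups, and most of them overlapped. Summed over 8 genes, markers of striatal projection neurons (among them Ppp1r1b and Pde10a) ranged from 1455 to 3890 CPM in amphetamine KO mice, against 4014 to 5204 CPM in amphetamine control mice. The 2 lowest sums were those of amphetamine KO mice 3 and 2, at 1455 and 2077 CPM. Of these 8 markers 0 were called and 8 had an unadjusted p under 0.05, all lower in amphetamine KO mice. Markers of septal and pallidal neurons (6 genes, among them Zic1 and Nkx2-1) summed to 246 to 421 CPM in amphetamine KO mice, against 116 to 261 CPM in amphetamine control mice. Thalamic markers (6 genes) summed to 129 to 152 CPM in amphetamine KO mice, against 106 to 122 CPM in amphetamine control mice. The projection neuron and thalamic sums did not overlap between these groups. Those of the direct pathway (276 to 650 CPM in amphetamine KO, against 629 to 829.5 CPM in amphetamine control mice), the indirect pathway (441 to 1111 CPM, against 1084 to 1428 CPM) and cortical projection neurons (203 to 1162 CPM, against 453 to 1062 CPM) overlapped. In bulk tissue, fewer cells of a type and less RNA per cell cannot be told apart. The part of these tissue differences in the receptor values was not tested.

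**Figure D2:**
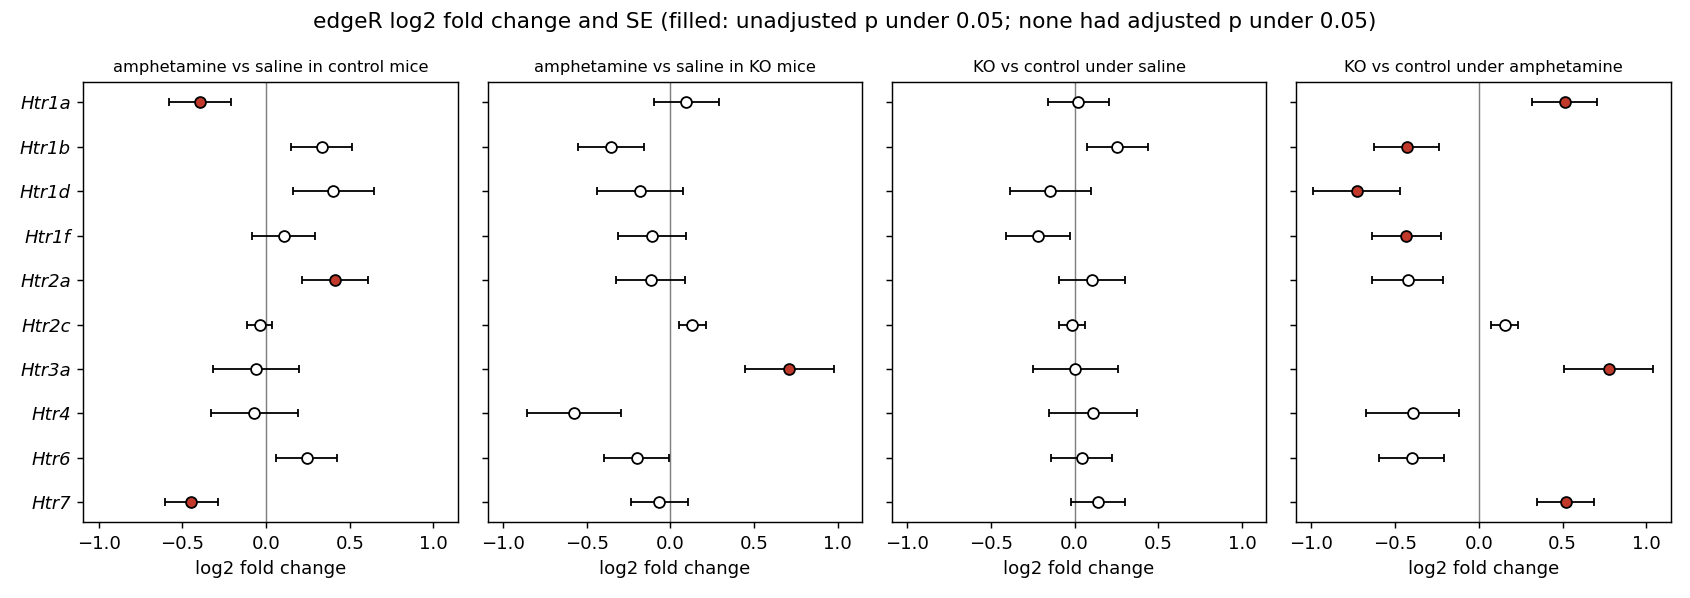
Log2 fold change (horizontal axes, with SE bars) of each serotonin receptor gene in the 4 pairwise comparisons, amphetamine over saline in the first 2 panels and KO over control in the others; filled points have an unadjusted p under 0.05. The filled points number 3, 1, 0 and 6 of 10, and no gene had an adjusted p under 0.05 in any panel.

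In control mice, amphetamine against saline showed lower average levels of Htr7 and Htr1a and a higher one of Htr2a, and none passed the test. Here 0 of the 10 receptor genes were called, where edgeR called 0.00465% of all genes. DESeq2 on all 19 libraries also called 0 of the 10, and 214 of all genes. At an unadjusted p under 0.05 it was 3 of 10, against 11.8% of all genes. Htr7 averaged 13.98 ± 3.56 CPM in amphetamine control and 19.02 ± 3.09 CPM in saline control mice (SD, n = 5 each), a log2 fold change of -0.45 ± 0.16 (edgeR, adjusted p = 0.282). Htr1a averaged 20.7 ± 3.87 CPM in amphetamine control and 27.2 ± 7.79 CPM in saline control mice, a log2 fold change of -0.39 ± 0.19 (adjusted p = 0.415). Htr2a averaged 42.6 ± 3.00 CPM in amphetamine control and 32.1 ± 4.81 CPM in saline control mice, a log2 fold change of 0.41 ± 0.20 (adjusted p = 0.422). Leaving out 1 library at a time, Htr7 ran from -0.58 to -0.34, Htr1a from -0.55 to -0.28 and Htr2a from 0.32 to 0.45. The unadjusted edgeR p stayed under 0.05 in 19 of these 19 fits for Htr7, in 7 for Htr1a and in 6 for Htr2a. Htr2a was the 1 receptor gene of 10 whose values did not overlap between these groups, against 3.9% of all genes.

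Htr2a was also the 1 receptor gene called in the authors' deposited table of this comparison, with a log2 fold change of 0.41, an SE of 0.11 and an adjusted p of 0.0103. That table called 795 of 18863 genes with an adjusted p, or 4.21%. The fold change was the same to 2 decimals as in the edgeR fit over all 19 libraries, where the SE was 0.20. In that fit the KO mice, with SDs of 10.7 and 11.0 CPM under amphetamine and saline, share the estimate of the spread. DESeq2 over all 19 libraries gave Htr2a an adjusted p of 0.331. With scores of cortical, choroid plexus and ependymal markers as covariates the fitted log2 fold change of Htr2a was -0.04 (adjusted p = 0.977), that of Htr7 was -0.05 and that of Htr1a was -0.13. All 10 cortical markers had a log2 fold change above 0 in this comparison (median 0.69) and all 8 ependymal markers had one below 0 (median -0.68), with 0 called in either list. Markers of striatal projection neurons summed to 4014 to 5204 CPM in amphetamine control mice, against 2605 to 3745 CPM in saline control mice, and septal and pallidal markers to 116 to 261 CPM, against 241 to 373 CPM. Hypothalamic markers summed to 9.53 to 26.2 CPM in amphetamine control mice, against 14.3 to 190 CPM in saline control mice. The part of these markers in the values of Htr7, Htr1a and Htr2a was not tested.

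In KO mice, amphetamine against saline gave 0 of 10 receptor genes called, where edgeR called 0.00465% of all genes. DESeq2 called 0 of the 10 and 98 of all genes. At an unadjusted p under 0.05 it was 1 of 10, against 12.1% of all genes, and the values of 0 of 10 were free of overlap, against 5.07% of all genes. Htr3a averaged 4.91 ± 3.01 CPM in amphetamine KO and 3.00 ± 0.443 CPM in saline KO mice (SD, n = 4 and 5), a log2 fold change of 0.71 ± 0.27 (edgeR, adjusted p = 0.318). Without amphetamine KO mouse 3 it was 0.19, and without the 5 libraries that stood apart 0.12. Htr4 had the next smallest p, with 9.32 ± 2.78 CPM in amphetamine KO and 13.9 ± 2.80 CPM in saline KO mice. In the authors' deposited table of this comparison, named there as leaving out a mouse numbered 7 that was not analysed here, 0 of the 10 were called and 131 of 19699 genes were, or 0.665%. Htr7, lower on average after amphetamine in control mice, averaged 20.01 ± 4.53 CPM in amphetamine KO and 21.0 ± 1.86 CPM in saline KO mice.

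Under saline the genotypes were closest. Of the 10 receptor genes 0 were called, where edgeR called 0% of all genes, and 0 had an unadjusted p under 0.05, against 7.94% of all genes. DESeq2 called 0 of the 10 and 2 of all genes. The values of 0 of 10 were free of overlap, against 0.911% of all genes. The smallest p was that of Htr1b, which averaged 45.6 ± 8.99 CPM in saline KO and 38.2 ± 8.58 CPM in saline control mice (SD, n = 5 each), a log2 fold change of 0.26 ± 0.18 (edgeR, adjusted p = 0.675). It was 0.13 without saline control mouse 5, 0.15 without saline KO mouse 1 and 0.12 without the 5 libraries that stood apart. The other 9 log2 fold changes lay between -0.22 and 0.14. The authors' deposited table of this comparison called 0 of the 10 and 0.00439% of all genes.

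The difference of the amphetamine response between KO and control mice was tested as an interaction. It gave 0 of 10 receptor genes called, where edgeR called 0% of all genes. DESeq2 called 0 of the 10 and 14 of all genes. By edgeR 2 of 10 had an unadjusted p under 0.05, against 9.25% of all genes. Htr1b had a difference of -0.69 ± 0.27 on the log2 scale (edgeR, adjusted p = 0.519), made of -0.35 ± 0.19 in KO and 0.33 ± 0.18 in control mice. Htr3a had a difference of 0.77 ± 0.37 (adjusted p = 0.539), and 0.25 without amphetamine KO mouse 3. Without the 5 libraries that stood apart these differences were -0.32 and 0.13. Averaged over genotypes, amphetamine against saline gave 0 of 10 called, where edgeR called 0.149% of all genes, and 1 of 10 at an unadjusted p under 0.05, against 14.5%. That gene was Htr7, with a log2 fold change of -0.26 ± 0.12 (adjusted p = 0.323), which was -0.36 without the 5 libraries that stood apart (adjusted p = 0.11). Averaged over treatments, KO against control gave 0 of 10 called, where edgeR called 0% of all genes, and 4 of 10 at an unadjusted p under 0.05, against 11.6%. These were Htr7 with 0.33 ± 0.12 (adjusted p = 0.334), Htr1d with -0.44 ± 0.18 (adjusted p = 0.379), Htr1f with -0.32 ± 0.14 (adjusted p = 0.396) and Htr3a with 0.39 ± 0.18 (adjusted p = 0.424). Without amphetamine KO mouse 3 the Htr3a value was 0.13, and without the 5 libraries the values were 0.12, -0.29, -0.19 and 0.11 in the same order of genes. DESeq2 called 0 of the 10 in either average, and 467 of all genes over genotypes and 11 over treatments. The comparisons with amphetamine KO or amphetamine control mice share those mice, so their values are not independent of each other.

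The receptor genes did not vary singly. Deviations of log2 CPM from the group mean were compared over the 19 mice, whose points share library composition and depth, and the coefficients are given as a description. Htr1a and Htr7 deviated together (Pearson r = 0.72, Spearman rho = 0.79), as did Htr1b and Htr1d (r = 0.77, rho = 0.64) and Htr1d and Htr6 (r = 0.67, rho = 0.69). Htr3a ran against Htr1b (r = -0.74, rho = -0.72), Htr1d (r = -0.74, rho = -0.64), Htr4 (r = -0.66, rho = -0.67) and Htr6 (r = -0.66, rho = -0.71). Htr7 ran against Htr2a (r = -0.61, rho = -0.72) and Htr1d (r = -0.60, rho = -0.75). Htr1f and Htr2a deviated with Htr1d (r = 0.60 and 0.58) and with each other (r = 0.59, rho = 0.72). Thus Htr1b, Htr1d, Htr1f, Htr2a, Htr4 and Htr6 tended to be high in the same mice, and Htr1a and Htr7 in other mice. Some pairs of the first set were loose, such as Htr4 with Htr2a (r = 0.24) and with Htr1d (r = 0.46). Htr4 varied little with Htr1a (r = 0.11) or Htr7 (r = 0.02). Htr2c followed neither set closely, with r between -0.28 and 0.37 to every other receptor gene.

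**Figure D3:**
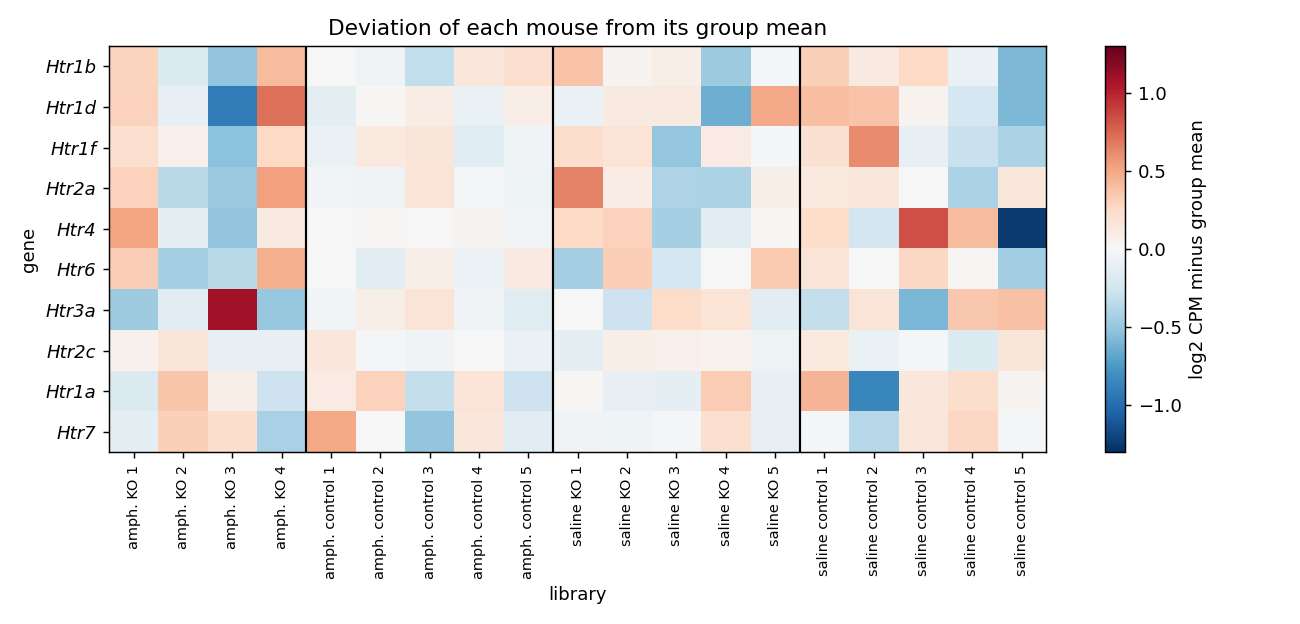
Deviation of log2 CPM from the group mean (color, blue below and red above) for each serotonin receptor gene (down the page) in each of the 19 mice (across, groups parted by black lines). Amphetamine KO mouse 3 is above its group mean for Htr3a, with 9.39 CPM, and below it for Htr1b and Htr1d, while Htr2c is pale across all mice.

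Most of these receptor genes tracked markers of striatal or of neighbouring tissue. With the mean log2 CPM of the striatal projection neuron markers, as deviations from group means over 19 mice, Htr1d had r = 0.91 (rho = 0.89), Htr1b 0.86 (rho = 0.82), Htr2a 0.68 (rho = 0.58) and Htr6 0.64 (rho = 0.70). Htr1f had r = 0.46 (rho = 0.47), Htr4 had r = 0.44 (rho = 0.45), and Htr3a had r = -0.81 (rho = -0.77). The 2 mice farthest from the median of those markers were amphetamine KO 3 and saline KO 4. After leaving them out, r was 0.82 for Htr1d, 0.79 for Htr1b, 0.53 for Htr2a and 0.70 for Htr6. It was 0.37 for Htr1f, 0.35 for Htr4 and -0.71 for Htr3a. Htr7 instead tracked the septal and pallidal markers (r = 0.80, rho = 0.70), the thalamic ones (r = 0.78, rho = 0.82) and the hypothalamic ones (r = 0.78, rho = 0.72). Htr1a tracked the thalamic (r = 0.75, rho = 0.76) and the septal and pallidal markers (r = 0.74, rho = 0.81). Without the 2 farthest mice of each list, Htr7 had r = 0.69, 0.88 and 0.77 in that order, and Htr1a had 0.68 with the thalamic and 0.77 with the septal and pallidal markers. Htr1f ran against the hypothalamic markers (r = -0.77, rho = -0.86). Other lists gave coefficients of like size. Htr2a ran against the ependymal markers (r = -0.60, and -0.74 without the 2 farthest mice). With the astrocyte markers Htr1b had r = -0.46 and Htr3a 0.42, and -0.87 and 0.79 without the 2 farthest mice. Htr3a had r = 0.44 with the GABAergic interneuron and 0.38 with the cortical markers, and 0.37 and 0.24 without the 2 farthest mice. With the microglial markers Htr4 had r = 0.63, and 0.12 without the 2 farthest mice. Htr1a had r = 0.48 with the cholinergic neuron markers, and 0.68 without the 2 farthest mice. Htr1d had r = 0.66 with the oligodendrocyte markers, and 0.53 without the 2 farthest mice. Htr2c had r = 0.47 (rho = 0.49) with the choroid plexus markers and 0.46 (rho = 0.50) with the septal and pallidal ones, and these were 0.37 and 0.41 without the 2 farthest mice of each list. The part of the tissue composition in these receptor values was not tested.

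**Figure D4:**
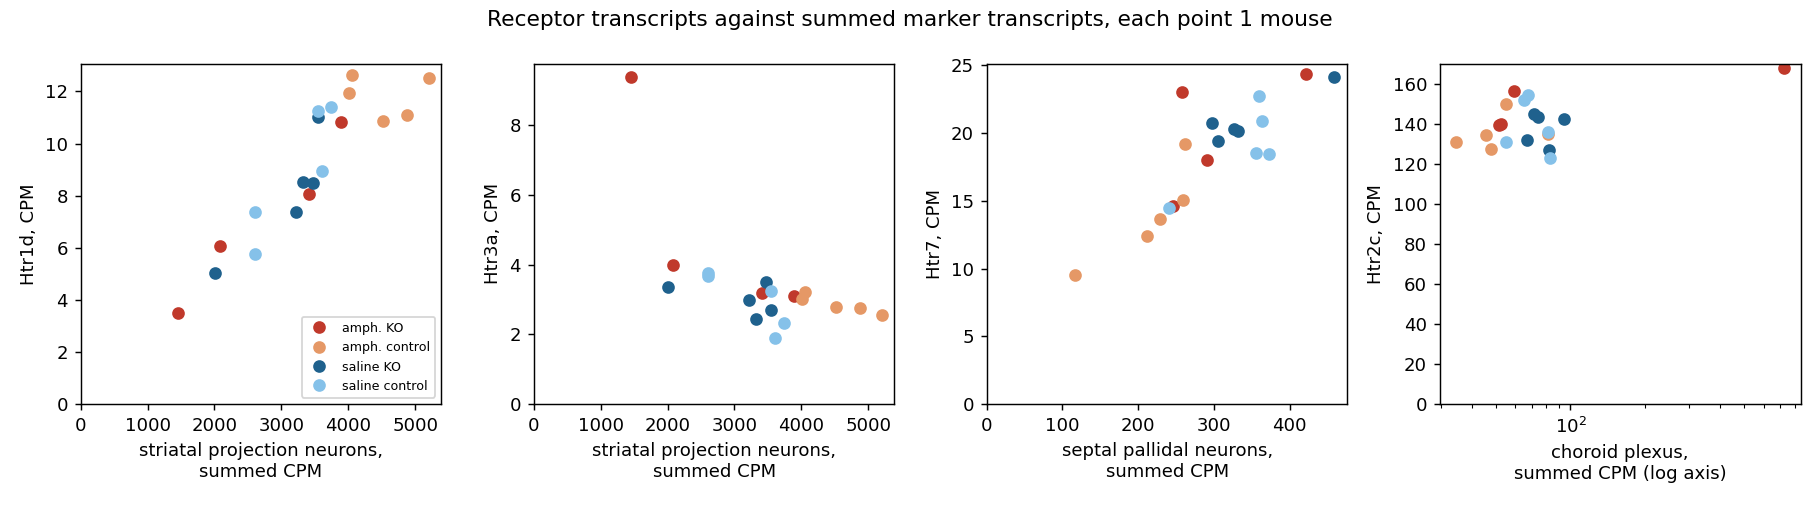
CPM of 4 receptor genes (vertical axes) against summed CPM of a marker list (horizontal axes, log scale for choroid plexus), each point 1 mouse, colored by group. Htr1d climbs with the striatal projection neuron sum from 3.49 CPM at a sum of 1455 CPM, the amphetamine KO mouse in which Htr3a is 9.39 CPM, and amphetamine control mouse 3 is lowest on both axes for Htr7 against septal and pallidal markers.

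For each receptor gene the most similar genes were taken by r of the same deviations over 19 mice among 15225 genes with a mean of at least 1 CPM. Tgfa, encoding a growth factor of the EGF family, was nearest to Htr1d (r = 0.94), followed by Adamtsl5 and Neu2. Pou3f3, a neuronal transcription factor, was among the 3 nearest to Htr1b (r = 0.93), after Gm43185 (0.95) and Olfr1393 (0.93). Ahi1, a ciliary gene, was nearest to Htr7 (r = 0.94), and Gprasp1, which encodes a receptor-sorting protein, was among the 3 nearest to both Htr7 (0.93) and Htr1a (0.87). Npy5r, a neuropeptide Y receptor, was nearest to Htr4 (r = 0.92), with Gucy1a1, a subunit of soluble guanylyl cyclase, next (0.92). Prkcb, a protein kinase C, was nearest to Htr2a (r = 0.89), Wscd2 to Htr6 (0.88), Macrod1 to Htr3a (0.89), Gm32699 to Htr1f (0.91), A730089K16Rik to Htr1a (0.90) and Mybl1 to Htr2c (0.87). These are the highest of 15225 coefficients for each gene and describe these mice.

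The remaining serotonin receptors in the files were low or level between groups. Htr5a, a Gi-coupled receptor, averaged 16.2 ± 1.13 CPM in amphetamine KO, 14.9 ± 0.995 in amphetamine control, 13.6 ± 1.84 in saline KO and 14.7 ± 1.3 in saline control mice. In KO mice amphetamine against saline gave it a log2 fold change of 0.25 ± 0.10 (edgeR, adjusted p = 0.338). Htr5b averaged between 0.913 and 1.3 CPM per group. Htr2b, with at most 19 counts in a library, and Htr3b, the partner subunit of Htr3a, with at most 12, were below the filter.

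Transcripts particular to serotonin neurons were low, with Slc6a4 and Fev near the limit of detection. Slc6a4, the serotonin transporter, had 2 to 18 counts per library. Tph2, the neuronal tryptophan hydroxylase, had 24 to 90 counts, or 0.302 to 1.22 CPM. Fev, a transcription factor of serotonin neurons, had 0 to 9 counts and was not tested. Of the 8 tested genes of this list 0 were called in any comparison. Slc18a2, the vesicular monoamine transporter, which dopamine axons use as well, averaged 3.05 ± 1.32 CPM in amphetamine control and 5.81 ± 0.564 CPM in saline control mice (SD, n = 5 each), a log2 fold change of -0.93 ± 0.28 (edgeR, adjusted p = 0.211). Ddc, the decarboxylase that completes serotonin and dopamine synthesis, had -0.50 ± 0.21 (adjusted p = 0.357), and Gch1, which makes the hydroxylases' cofactor, had -0.38 ± 0.15 (adjusted p = 0.341) in the same comparison. In KO mice the smallest p of the list was that of Maob, which breaks down monoamines, with 32.4 ± 1.41 CPM in amphetamine KO and 36.8 ± 2.62 CPM in saline KO mice (adjusted p = 0.346).

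Partners of the receptors and their G proteins gave the same picture, with 0 of 11 partner genes and 0 of 16 transduction genes called in each of the 7 comparisons. S100a10, which encodes the p11 protein that binds Htr1b and Htr4, averaged 19.6 ± 3.48 CPM in amphetamine KO and 13.7 ± 1.51 CPM in amphetamine control mice (SD, n = 4 and 5), a log2 fold change of 0.52 ± 0.14 (edgeR, adjusted p = 0.22). Ahnak, a scaffold that binds p11, averaged 73.0 ± 3.81 CPM in amphetamine KO and 48.7 ± 21.4 CPM in saline KO mice, a log2 fold change of 0.58 ± 0.25 (adjusted p = 0.371). Plcb1, a phospholipase C downstream of Gq, averaged 229 ± 52.2 CPM in amphetamine KO and 327 ± 13.4 CPM in amphetamine control mice, with -0.51 ± 0.15 (adjusted p = 0.225). Adcy5, the main striatal adenylyl cyclase, averaged 609 ± 203 CPM in amphetamine KO and 908 ± 111 CPM in amphetamine control mice, with -0.58 ± 0.19 (adjusted p = 0.237), and it is also 1 of the 8 projection neuron markers. Gnas, the Gs alpha subunit, averaged 983 ± 86.5 CPM in amphetamine control and 1182 ± 155 CPM in saline control mice, with -0.27 ± 0.10 (adjusted p = 0.305). Gnai2, a Gi alpha subunit, had 0.21 ± 0.08 in amphetamine KO against amphetamine control mice (adjusted p = 0.266) and -0.19 ± 0.07 in amphetamine control against saline control mice (adjusted p = 0.291). Plcb1 had 0.36 ± 0.14 in that comparison of control mice (adjusted p = 0.309). In amphetamine KO against saline KO mice Adcy1, a calmodulin-stimulated adenylyl cyclase, had 0.66 ± 0.30 (adjusted p = 0.397) and Gna11, a Gq family subunit, had 0.15 ± 0.07 (adjusted p = 0.413). In saline KO against saline control mice Plcb3, another phospholipase C, had -0.17 ± 0.08 (adjusted p = 0.614). In the averages over genotypes or treatments the log2 fold changes named by the same rule lay between -0.74, for Slc18a2 with amphetamine against saline (adjusted p = 0.124), and 0.55, for Adcy1 in the same average (adjusted p = 0.228). For these genes too the part of the tissue markers was not tested.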

How the data were processed

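Total RNA of striatum was sequenced, 1 library per mouse. The authors deposited whole-number counts per gene, made per the submitters' processing notes with Trim Galore 0.5.0, STAR 2.6.0c and HTSeq on build GRCm39. The release of the annotation, and whether counting used strand, is not given in the sources used here. Per the file headers, the authors' deposited tables hold log2 fold changes with SE, p-values and adjusted p-values from DESeq2, and FPKM, whose gene length is not stated. Within a gene the deposited FPKM was proportional to the counts, with library factors of 0.953 to 1.04.

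Groups came from the sample titles. Of 49592 genes, 21513 passed filterByExpr; counts were scaled by TMM and fitted with edgeR 4.0.16 in R 4.3.3 (quasi-likelihood, robust) as 4 group means over 19 libraries. P-values of 7 contrasts were adjusted by Benjamini-Hochberg over all genes tested. Each SE was taken as the log2 fold change divided by the square root of F. Log2 CPM used a prior count of 2. Scripts were tested on simulated data. DESeq2 1.42.0, other scaling, no filter, a replicate block, marker covariates and leaving out libraries were alternatives. Between libraries, chi-square per degree of freedom was at least 10.3, so none were copies. A receptor gene's fold change was named where its unadjusted p was under 0.05 or the smallest of its contrast, and up to 3 genes of each of 4 pathway lists by the same rule. Htr4 in KO mice was named after its values were seen, as were Htr2a, Htr2c, Htr4 and Htr6 in KO against control under amphetamine. The receptor genes and lists were chosen with earlier results of these data known.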

Additional observations from a re-analysis of the deposited data

Results flagged for a closer look

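In 4 of 40 groups tested, the 4 groups of mice for each of the 10 receptor genes, 1 mouse lay far from the others of its group by Dixon's test of the gap to the nearest mouse, where chance gives about 1 in 20 groups. Htr3a, the channel subunit, was at 9.39 CPM in amphetamine KO mouse 3, with the next mouse of the group at 3.98 CPM, and without this mouse the log2 fold change of Htr3a was 0.19 in place of 0.71 for amphetamine against saline in KO mice. The same mouse had the lowest summed striatal projection neuron markers of all 19, 1455 CPM, and the lowest Htr1b, Htr1d, Htr1f and Htr2a values. It also had the highest sums of all 19 for GABAergic interneuron markers, 599 CPM, and for cortical projection neuron markers, 1162 CPM. Htr1a was at 34.4 CPM and Htr7 at 24.2 CPM in saline KO mouse 4, both the highest of their group, in the library whose septal and pallidal markers were the highest of all 19 at 459 CPM. Htr2a was at 47.9 CPM in amphetamine control mouse 3, against 40.5 to 42.1 CPM in the other 4 mice of that group. In this library the septal and pallidal markers were the lowest of all 19 at 116 CPM. Its cortical projection neuron markers were the highest of its group at 1062 CPM. The part of these markers in the receptor values was not tested.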

How the results depend on the processing

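None of the 10 receptor genes was called in any of the 7 comparisons under any of 25 alternatives (edgeR or DESeq2). Of 450 values of the receptor results named by the rule on p, 448 kept their direction and stayed above the threshold. The exceptions came with cortical, choroid plexus and ependymal marker scores as covariates, where Htr2a in amphetamine against saline in control mice was -0.038 and Htr7 in amphetamine against saline averaged over genotypes was 0.015, in place of 0.41 and -0.26. The counts of all genes called moved more. Amphetamine against saline in control mice called 1 gene, with 214 by DESeq2, 0 with the covariates, 39 without the 5 libraries that stood apart and 0 to 6 leaving out 1 library. In KO mice it called 1 gene, with 98 by DESeq2, 0 with the covariates, 2 without the 5 libraries and 0 to 29 leaving out 1 library. KO against control called 0 genes under saline (2 by DESeq2), 0 under amphetamine (103 by DESeq2, 1 without the 5 libraries) and 0 averaged over treatments (11 by DESeq2). The interaction called 0 (14 by DESeq2). Amphetamine against saline averaged over genotypes called 32, with 467 by DESeq2, 0 with the covariates, 470 without the 5 libraries and 3 to 269 leaving out 1 library. The cause was not tested. Other size factors moved the median of all genes by at most 0.0071 (log2).

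Mouse numbers in the titles showed no pairing of the mice: same-numbered deviations correlated between -0.221 and 0.154, with 1 of 18 pairs over 0.1. The titles renumber the amphetamine KO mice that come after the mouse left out by the authors. A pairing by the original numbers was therefore not tested for those mice. With the mouse number as a replicate block, amphetamine against saline called 5 genes in KO mice and 18 averaged over genotypes, and 0 receptor genes. By CPM in place of FPKM, 4 of the 10 receptor genes kept their place in the order of levels. Over the leave-one-out fits Htr3a ran from 0.19 to 0.88 for amphetamine against saline in KO mice and from 0.26 to 0.95 for KO against control under amphetamine, the lowest without amphetamine KO mouse 3. Htr1d ran from -0.997 to -0.50 in the same comparison of genotypes, without amphetamine KO mice 4 and 3, and Htr7 from 0.41 to 0.65.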
